A study of Mus musculus with 12 samples.

Results

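*Cytip*, the 4 cytohesin genes *Cyth1*, *Cyth2*, *Cyth3* and *Cyth4*, and 4 genes of leukocyte adhesion, *Fermt3*, *Selplg*, *Cd44* and *Icam1*, were followed in mouse neutrophils and macrophages after exposure to calcitonin gene-related peptide (CGRP), a neuropeptide released by sensory nerve endings. The 9 genes were picked by name from the 52636 genes listed in both count tables. They were picked with the CGRP response already known, so the CGRP-against-saline values of these 9 genes are given as a description, without a p-value.

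The cells came from the bone marrow of C57BL/6 J mice aged 8 to 12 weeks. Neutrophils were isolated and used directly in RPMI medium, and monocytes were first cultured for 3 days in DMEM/F12 with M-CSF (10 ng/ml), which drives monocytes towards macrophages. The labels call the second cell type monocyte/macrophage, and it is called macrophage here. Each cell type was then kept for 4 h with 1 nM CGRP or with saline (PBS), which gave 4 groups of 3 libraries and 12 libraries in all. No group carried a genetic change. The sources do not say whether the 3 libraries of a group came from separate animals or cultures, so the spread between them may be technical, and both models lack the tissue that surrounds these cells in a wound.

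The libraries held between 2002559 and 3631989 counts, and 3 counts, taken as the floor of detection, were worth between 0.826 and 1.498 CPM (counts scaled to a common library size). Floors cover counting error only. Levels are in CPM scaled by TMM over the 12 libraries, a method that corrects for differences in RNA composition. They are compared between groups for the same gene and not between genes. In bulk RNA, more cells of a type and more RNA per cell cannot be told apart.

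The labelled cell types matched their markers. *Ly6g*, a surface marker of mouse neutrophils, was at 866 ± 163 CPM in control neutrophils and at 0.539 ± 0.476 CPM in control macrophages (SD, n = 3). *Csf1r*, the receptor for M-CSF, was at 201 ± 15.8 CPM in control neutrophils and 774 ± 132 CPM in control macrophages (SD, n = 3). The neutrophil preparations also held RNA of other marrow cells, and these values are given after the results.

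CYTIP (cytohesin-interacting protein) is a scaffold of haematopoietic cells that binds cytohesins and draws them away from the plasma membrane. Cytohesins are guanine nucleotide exchange factors that load ARF GTPases with GTP. Cytohesin-1 was described as a regulator of adhesion through the beta2 integrin LFA-1, whose ligand is ICAM-1. Kindlin-3, encoded by *Fermt3*, binds integrin tails and is needed for their activation in blood cells. PSGL-1, encoded by *Selplg*, is the main selectin ligand of leukocytes, and CD44 is a receptor for hyaluronan.

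*Cytip* was higher with CGRP in both cell types. In neutrophils, its level was 142, 138 and 118 CPM in the control libraries and 240.3, 239.9 and 174 CPM in the CGRP libraries. In macrophages, it was 39.9, 39.6 and 28.4 CPM in the control libraries and 435, 379 and 296 CPM in the CGRP libraries. The groups did not overlap in either cell type, and the lowest CGRP-treated macrophage library was above every neutrophil library. The fold change was 1.65 in neutrophils (log2 0.73, SE 0.11, 95% interval 0.49 to 0.96) and 10.2 in macrophages (log2 3.35, SE 0.19, 95% interval 2.96 to 3.74). On the log2 scale, the macrophage change exceeded the neutrophil change by 2.64 (SE 0.23, 95% interval 2.16 to 3.12).

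The order of the 4 groups therefore turned over between control and treatment. Control macrophages were lowest for *Cytip* (mean 35.9 CPM), followed by control neutrophils (133 CPM), CGRP-treated neutrophils (218 CPM) and CGRP-treated macrophages (370.1 CPM). No 2 neighbours in this order overlapped.

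*Cyth1*, which encodes cytohesin-1, the first cytohesin shown to bind the tail of the beta2 integrin, followed the same order of groups. Its level in neutrophils was 42.4, 39.3 and 40.0 CPM in the control libraries and 68.0, 81.2 and 82.4 CPM in the CGRP libraries. In macrophages, it was 26.4, 21.0 and 35.2 CPM in the control libraries and 110.0, 131 and 150.4 CPM in the CGRP libraries. Every CGRP library was above every control library of its cell type. The fold change was 1.91 in neutrophils (log2 0.93, SE 0.13, 95% interval 0.66 to 1.20) and 4.82 in macrophages (log2 2.27, SE 0.19, 95% interval 1.86 to 2.68). The change in macrophages was larger by 1.35 on the log2 scale (SE 0.23, 95% interval 0.86 to 1.83).

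*Cytip* lies on chromosome 2, at chr2:58129137-58195532 on the minus strand of GRCm38, and *Cyth1* on chromosome 11, at chr11:118132019-118248592, also on the minus strand. Because both genes were higher with CGRP in both cell types and the CGRP receptor raises cyclic AMP, the sequence before a RefSeq start of each (GRCm38.p6) was read for the cyclic AMP response element, the site bound by CREB and CREM. The 250 bases before the start are shown for *Cytip* (chr2:58160123-58160372) and for the outermost *Cyth1* start (chr11:118248559-118248808), 5′ to 3′ on the gene's strand. This *Cytip* start lies inside the span given above, and the sequence before the outer end of that span was not read. Capitals mark a stretch of 8 letters nearest to TGACGTCA, and in *Cyth1* other stretches, left unmarked, matched as many letters.
Cytip: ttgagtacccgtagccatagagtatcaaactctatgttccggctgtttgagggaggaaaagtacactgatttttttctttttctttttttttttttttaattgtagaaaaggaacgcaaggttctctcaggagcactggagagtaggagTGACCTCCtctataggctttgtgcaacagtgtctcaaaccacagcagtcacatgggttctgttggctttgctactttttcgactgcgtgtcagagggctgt
Cyth1: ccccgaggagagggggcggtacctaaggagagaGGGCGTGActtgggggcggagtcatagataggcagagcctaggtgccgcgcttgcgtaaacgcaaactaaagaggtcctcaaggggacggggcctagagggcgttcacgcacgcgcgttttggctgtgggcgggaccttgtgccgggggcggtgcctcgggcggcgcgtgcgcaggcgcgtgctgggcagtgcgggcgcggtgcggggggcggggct

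The nearest stretch matched 6 of the 8 letters in *Cytip*, beginning 101 bases before the start, and 5 of 8 in *Cyth1*. Matches of at least 6 letters were present before 54.3% of the 32851 RefSeq starts searched, and matches of at least 5 before 99.3%, so neither stands out from promoters in general. The nearest-match search was added after no exact site was found. Of the 9 genes, 8 had RefSeq promoter windows of 300 bases (10 windows, *Selplg* without one). None of the 10 held TGACGTCA, its half-site TGACG, or either of the exact NF-kB forms searched, read on both strands. Other NF-kB forms were not searched for, so whether these windows, including that of *Icam1*, hold a variant NF-kB site was not tested. Among all windows, 1.79% held the full site, 20.8% the half-site, which is contained in the full site, and 0.244% either NF-kB form searched. The absence says only that these letters are not in these windows, and counts from the 3′ end do not show which start was used.

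The other cytohesins differed less with CGRP than *Cyth1* in macrophages. *Cyth2*, encoding the broadly expressed cytohesin-2 (ARNO), was at 16.4, 19.0 and 14.4 CPM in control neutrophils and at 29.9, 22.9 and 26.3 CPM with CGRP. In macrophages, *Cyth2* was at 27.3, 28.2 and 27.7 CPM in the control libraries and at 33.5, 39.5 and 38.2 CPM with CGRP. The groups did not overlap in either cell type, and the fold changes were 1.58 in neutrophils (log2 0.66, SE 0.18) and 1.33 in macrophages (log2 0.41, SE 0.17).

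*Cyth3* encodes cytohesin-3 (GRP1), which binds the phosphoinositide made by PI3-kinase. In neutrophils, it was at 7.90, 6.75 and 7.93 CPM in the control libraries and at 17.6, 13.5 and 14.5 CPM with CGRP, from between 22 and 54 counts per library. In macrophages, it was at 60.8, 51.2 and 56.8 CPM in the control libraries and at 66.8, 80.2 and 79.0 CPM with CGRP. The groups were again apart in both cell types. The fold change was 2.02 in neutrophils (log2 1.01, SE 0.24, 95% interval 0.51 to 1.52) and 1.33 in macrophages (log2 0.42, SE 0.15, 95% interval 0.09 to 0.74).

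*Cyth4*, whose cytohesin is found mainly in blood cells, went the other way in macrophages. Its level there was 343, 322 and 315 CPM in the control libraries and 266, 268 and 265 CPM with CGRP, a fold change of 0.817 (log2 -0.29, SE 0.12, 95% interval -0.55 to -0.03). In neutrophils, the levels of 166, 165 and 155 CPM in controls and 165, 160.4 and 146 CPM with CGRP overlapped (log2 -0.03, SE 0.09).

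**Figure D1:**
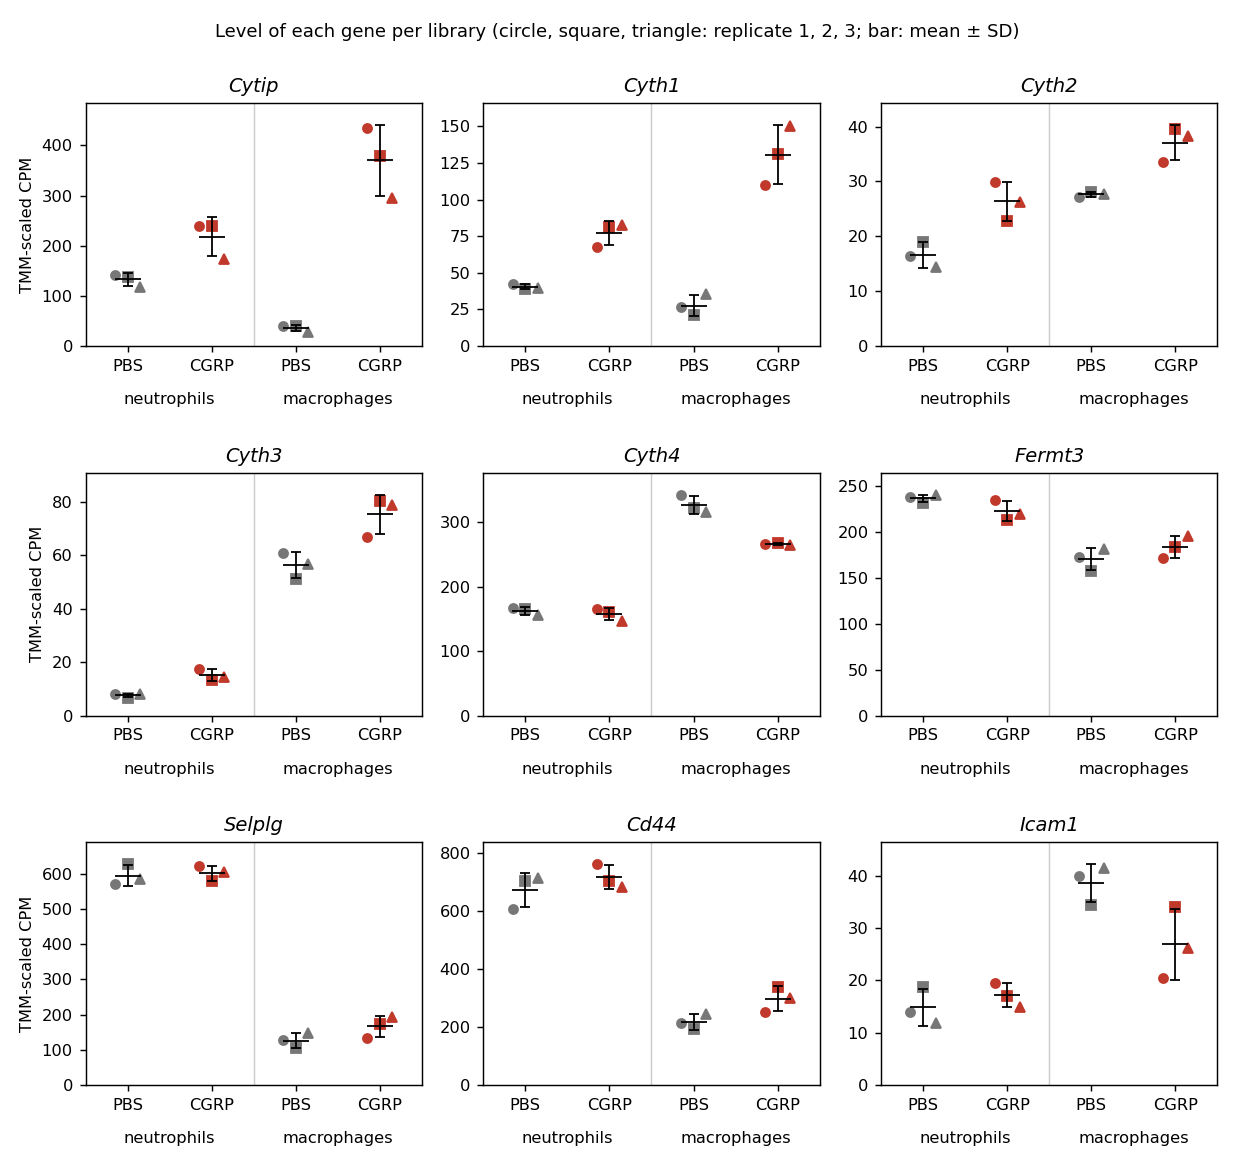
TMM-scaled CPM (vertical axes, each from 0) of the 9 genes in each of the 12 libraries, with the mean and SD of 3 libraries per group. *Cytip* and *Cyth1* run from control macrophages, the lowest group, to CGRP-treated macrophages, the highest, while *Fermt3* and *Selplg* differ more between cell types than with treatment.

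Among the adhesion genes, *Fermt3* differed little with treatment. Its levels were 237, 231 and 239.6 CPM in control neutrophils and 234, 213 and 219.6 CPM with CGRP, and the groups overlapped (log2 -0.07, SE 0.08). In macrophages, 173, 157 and 181 CPM in the control libraries and 171, 183 and 196 CPM with CGRP overlapped as well (log2 0.11, SE 0.13).

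*Selplg* was also flat in neutrophils. The control libraries held 571, 627 and 584 CPM and the CGRP libraries 620.3, 579 and 603 CPM (log2 0.03, SE 0.08, 95% interval -0.13 to 0.19). In macrophages, the values were 127, 104 and 146 CPM in the control libraries and 134, 173 and 192 CPM with CGRP (log2 0.40, SE 0.16, 95% interval 0.06 to 0.75). The first CGRP library lay within the range of the controls.

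*Cd44* was at 608, 704 and 714 CPM in control neutrophils and at 763, 705 and 683 CPM with CGRP, with overlapping groups (log2 0.11, SE 0.08). In macrophages, *Cd44* was at 213, 194 and 246 CPM in the control libraries and at 253, 339 and 299.9 CPM with CGRP. These groups did not overlap, and the fold change was 1.37 (log2 0.45, SE 0.14, 95% interval 0.14 to 0.75).

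*Icam1*, a ligand of the beta2 integrins, was lower with CGRP in macrophages, at 39.9, 34.5 and 41.3 CPM in the control libraries and 20.4, 34.0 and 26.2 CPM with CGRP. The highest CGRP library was just below the lowest control library, and the fold change was 0.682 (log2 -0.55, SE 0.20, 95% interval -0.98 to -0.12). In neutrophils, 13.9, 18.7 and 11.9 CPM in the control libraries overlapped with 19.5, 17.0 and 14.9 CPM with CGRP (log2 0.24, SE 0.21).

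Across the 9 genes, 3 (*Cytip*, *Cyth1* and *Cyth3*) passed an adjusted p of 0.05 in the limma-voom fit of all genes in neutrophils, where 2.53% of the 9819 genes tested did (1.51% higher), and 2 (*Cytip* and *Cyth1*) in macrophages, where 7.43% of 9393 did (3.46% higher). Groups did not overlap for 4 of the 9 in neutrophils, all higher with CGRP, and for 7 in macrophages, of which 5 were higher and 2 (*Cyth4* and *Icam1*) lower. Over all genes tested, groups did not overlap for 17.8% in neutrophils (8.1% higher) and 24.1% in macrophages (11.6% higher and 12.5% lower). Since the choice of the genes used this contrast, nothing is read from these counts. The median log2 fold change of the 9 was 0.24 in neutrophils and 0.41 in macrophages, beside 0.00080 and 0.0047 for all genes tested. *Cyth3* in neutrophils failed without control replicate 1, 2 or 3 and without CGRP replicate 1, and passed when either of the other 2 libraries was left out. *Cd44* in macrophages passed without control replicate 3 or without CGRP replicate 1, and *Selplg* without CGRP replicate 1.

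**Figure D2:**
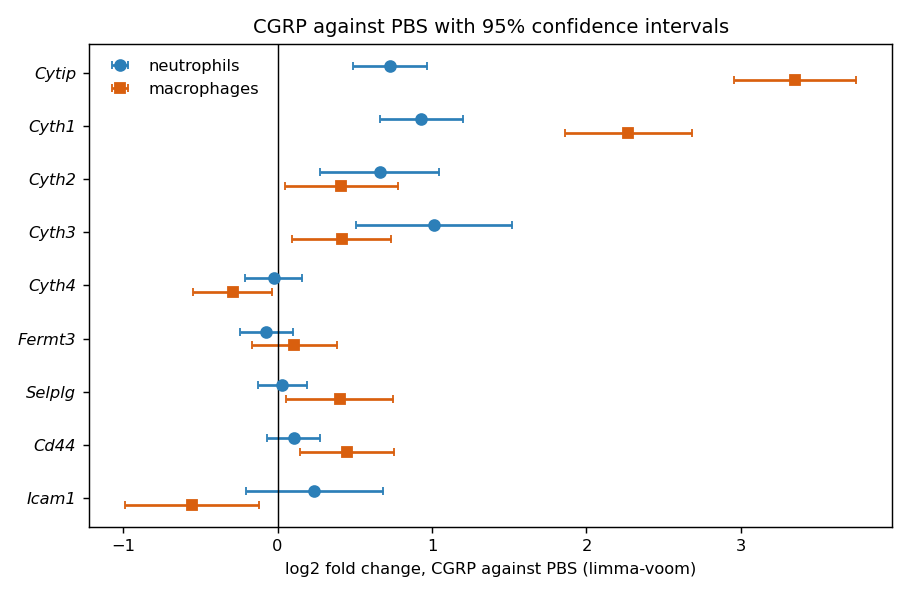
Log2 fold change of CGRP against PBS (horizontal axis) with its 95% confidence interval for each of the 9 genes, in neutrophils (circles) and macrophages (squares), from the limma-voom fit of each cell type. The intervals of the 2 cell types are far apart for *Cytip* (0.49 to 0.96 and 2.96 to 3.74) and *Cyth1* (0.66 to 1.20 and 1.86 to 2.68). They overlap for each of the other genes.

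Levels without CGRP were compared between the cell types by limma-voom over the 12 libraries. In this comparison, cell type, medium and the culture with M-CSF cannot be told apart. All 9 genes passed an adjusted p of 0.05, beside 67.9% of the 10694 genes tested, so differing was the rule among expressed genes, and the sizes are of more use than the count. The control groups did not overlap for any of the 9, as for 70.5% of all genes tested.

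Of the 9 genes, 5 were higher in neutrophils and 4 in macrophages, beside 35.4% and 32.5% of all genes tested. Neutrophils held more of the transcripts for the selectin ligand, the hyaluronan receptor and CYTIP. *Selplg* was 4.78-fold higher in control neutrophils (log2 2.26, SE 0.13, limma-voom adjusted p = 3.43e-13), *Cytip* 3.68-fold (log2 1.88, SE 0.18, adjusted p = 4.65e-09) and *Cd44* 3.11-fold (log2 1.64, SE 0.12, adjusted p = 2.59e-11). *Cyth1* (1.52-fold, adjusted p = 0.00640 by limma-voom) and *Fermt3* (1.39-fold, adjusted p = 0.000314) differed less. The *Cyth1* difference fell short of the threshold without control macrophage replicate 2 (log2 0.42, limma-voom adjusted p = 0.0616).

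Macrophages held more of the other 3 cytohesins and of *Icam1*. *Cyth3* was 7.37-fold higher there (log2 -2.88 for neutrophils minus macrophages, SE 0.22, limma-voom adjusted p = 6.90e-11), *Icam1* 2.59-fold (log2 -1.37, SE 0.21, adjusted p = 4.29e-06), *Cyth4* 2.02-fold (log2 -1.01, SE 0.10, adjusted p = 5.42e-09) and *Cyth2* 1.66-fold (log2 -0.73, SE 0.18, adjusted p = 0.00117). The 4 cytohesins thus did not share a direction between the cell types: *Cyth1* was higher in neutrophils and the other 3 in macrophages.

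With CGRP included, the order of groups was the same for *Cyth2* and *Cyth3*, from control neutrophils (16.6 and 7.53 CPM) through CGRP-treated neutrophils (26.4 and 15.2 CPM) and control macrophages (27.7 and 56.3 CPM) to CGRP-treated macrophages (37.1 and 75.3 CPM). CGRP-treated neutrophils and control macrophages overlapped for *Cyth2*, and no neighbours overlapped for *Cyth3*. For *Cyth4*, both neutrophil groups (157 CPM with CGRP and 162 CPM in controls, overlapping) lay below CGRP-treated macrophages (266 CPM) and control macrophages (327 CPM). For *Fermt3* and *Selplg*, both macrophage groups lay below both neutrophil groups, and the treatments overlapped within each cell type. *Cd44* had the same order of cell types, with overlap only between the neutrophil groups, and *Icam1* the reverse order of cell types, again with overlap only between the neutrophil groups.

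To place the 9 genes in their pathways, 6 lists of other genes were drawn up from textbook roles, also with earlier results known, and 122 of the 125 listed symbols were found. In neutrophils, 97 could be tested, of which 2 rose and 4 fell (6.19% in all, beside 2.53% of all genes tested, of which 1.51% rose and 1.02% fell). Their median log2 fold change was -0.04. In macrophages, 85 could be tested, of which 3 rose and 8 fell (12.9% in all, beside 7.43% of all genes tested, of which 3.46% rose and 3.97% fell), and their median was -0.05. Of the genes past the threshold, 4 were past it in both cell types, each in the same direction.

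Partners of CYTIP and the cytohesins, ARF GTPases and other ARF exchange factors showed 1 change. *Arl4c*, an ARF-like GTPase that recruits cytohesins to the plasma membrane, rose in macrophages, from 32.1, 32.7 and 54.7 CPM in the control libraries to 95.3, 124 and 131 CPM with CGRP (log2 1.60, SE 0.20, limma-voom adjusted p = 6.86e-05). None of the other 16 genes of the list tested in macrophages passed, nor any of the 16 tested in neutrophils, where *Arl4c* was at 25.3 ± 5.52 CPM in controls and 35.3 ± 4.49 CPM with CGRP (SD, n = 3, limma-voom adjusted p = 0.117). *Arf6*, a plasma membrane GTPase that cytohesins can activate, was at 21.7 ± 3.39 and 22.5 ± 7.51 CPM in neutrophils and at 30.97 ± 6.90 and 21.3 ± 8.50 CPM in macrophages, for control and CGRP (SD, n = 3, limma-voom adjusted p = 0.992 and 0.265). *Grasp*, the closest relative of *Cytip*, had at most 6 counts in any library and could not be tested. *Arf6* and *Grasp*, and *Itgb2*, *Itgal* and *Msn* further on, were singled out for their role after their values were seen.

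ARF GTPase-activating proteins, which switch ARF GTPases off, fell where they passed. *Asap1*, a member found at focal adhesions, went from 123, 135 and 114 CPM to 84.5, 87.7 and 76.7 CPM in neutrophils (log2 -0.56, SE 0.10, limma-voom adjusted p = 0.00312) and from 64.6, 71.6 and 83.1 CPM to 27.6, 37.3 and 36.7 CPM in macrophages (log2 -1.12, SE 0.18, adjusted p = 0.00073). *Smap2*, which acts on ARF1 in membrane traffic, fell in macrophages (log2 -0.67, SE 0.16, limma-voom adjusted p = 0.0178). Without control replicate 1, or without CGRP replicate 2 or 3, the fold stayed similar (log2 -0.63, -0.73 and -0.65). The call was lost in these cases (limma-voom adjusted p up to 0.101). The other 13 of 14 tested in neutrophils and 10 of 12 in macrophages did not pass.

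The integrin activation list held changes in both directions. *Sipa1l1*, a GTPase-activating protein that switches Rap GTPases off, rose in neutrophils (log2 0.96, SE 0.18, limma-voom adjusted p = 0.00275) and macrophages (log2 1.32, SE 0.27, adjusted p = 0.00577). Its levels went from 20.7 ± 3.79 to 39.2 ± 5.59 CPM and from 12.03 ± 5.38 to 28.1 ± 3.79 CPM (SD, n = 3). *Rapgef6*, an exchange factor that switches Rap GTPases on, fell in neutrophils, from 154, 133 and 118 CPM to 85.8, 79.2 and 70.6 CPM (log2 -0.75, SE 0.11, limma-voom adjusted p = 0.000357). In macrophages, *Rapgef6* fell from 33.3, 44.7 and 36.7 CPM to 15.7, 12.9 and 19.1 CPM (log2 -1.28, SE 0.22, adjusted p = 0.00139). No library of one group reached the other group for *Rapgef6* in either cell type.

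Further members of this list passed in macrophages only, and the difference between the cell types was tested for each. *Apbb1ip*, which encodes RIAM, an effector that brings talin to integrins under Rap1, fell from 124, 95.9 and 123 CPM to 28.2, 36.2 and 40.8 CPM (log2 -1.72, SE 0.18, limma-voom adjusted p = 1.18e-05). In neutrophils, it went from 245 ± 8.75 to 212 ± 3.96 CPM (SD, n = 3, limma-voom adjusted p = 0.31), and the interaction, past the threshold for 2.36% of all genes tested, passed (log2 -1.52, SE 0.19, adjusted p = 2.93e-05). *Pxn*, encoding paxillin, an adaptor of integrin adhesions, rose in macrophages from 62.8, 51.8 and 70.5 CPM to 102, 131 and 131 CPM (log2 0.98, SE 0.16, limma-voom adjusted p = 0.000949), and the interaction passed as well (log2 1.04, SE 0.18, adjusted p = 0.00177). *Vcl*, encoding vinculin, fell from between 45 and 48 counts per control library to between 16 and 21 counts with CGRP (log2 -1.08, SE 0.27, limma-voom adjusted p = 0.0222). This call was lost without control replicate 1 or without any 1 of the CGRP replicates (adjusted p up to 0.118), and the interaction did not pass (adjusted p = 0.228). *Fyb*, encoding the adaptor ADAP, fell (log2 -0.62, SE 0.12, limma-voom adjusted p = 0.00432), and its interaction did not pass either (adjusted p = 0.402).

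The integrin subunits paired with these regulators did not pass. *Itgb2*, the shared beta2 chain, was at 812 ± 67.7 CPM in control and 755 ± 35.8 CPM in CGRP-treated neutrophils, and at 470.2 ± 43.8 and 515 ± 48.8 CPM in macrophages (SD, n = 3, limma-voom adjusted p = 0.718 and 0.630). *Itgal*, the alpha chain of LFA-1, gave log2 fold changes of -0.01 (95% interval -0.20 to 0.18) in neutrophils and 0.29 (-0.36 to 0.94) in macrophages.

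**Figure D3:**
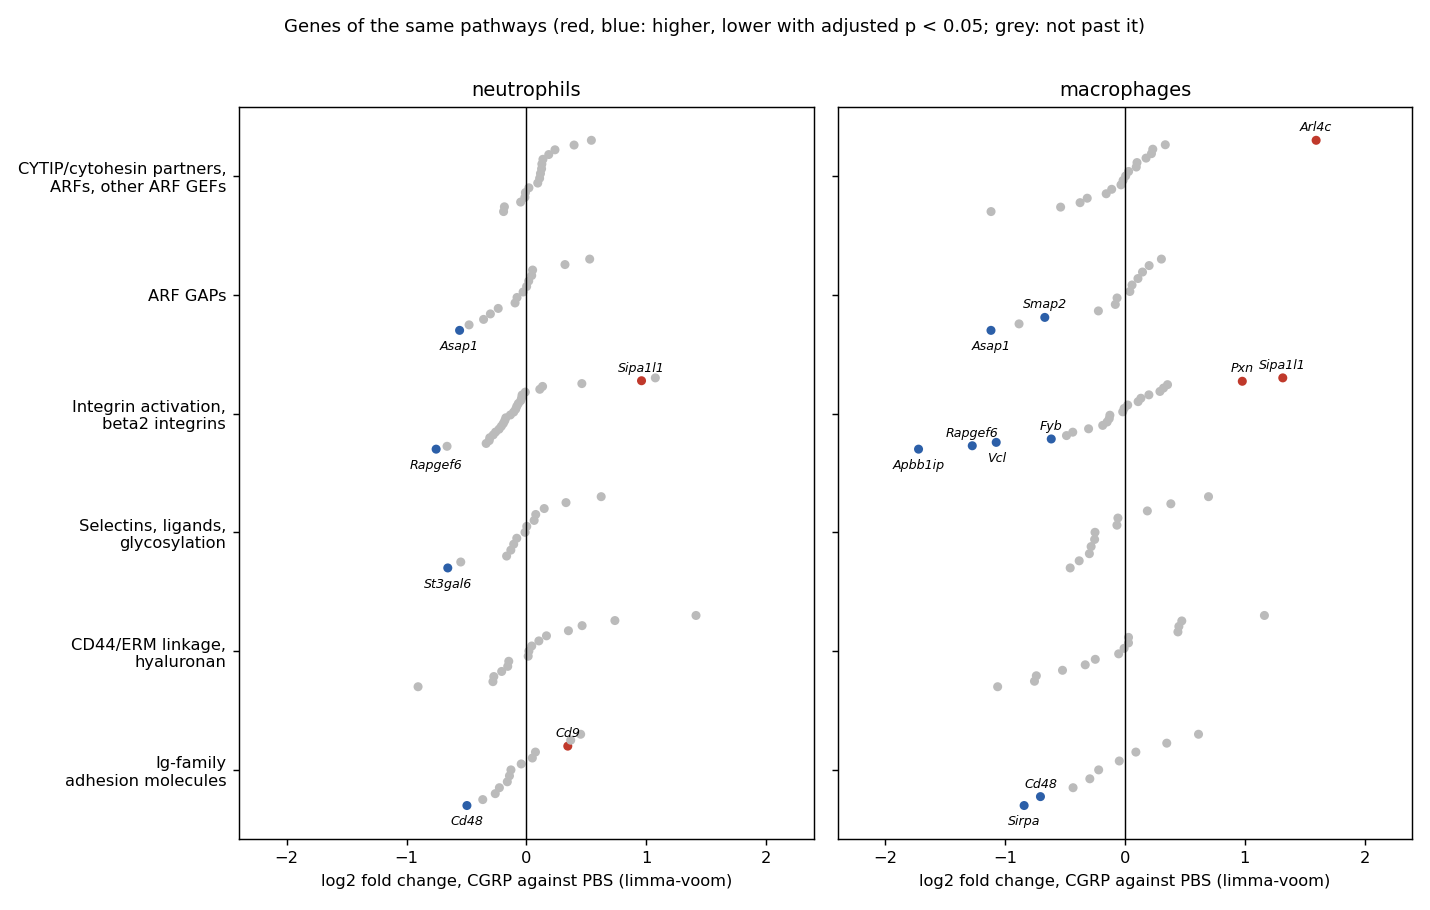
Log2 fold change of CGRP against PBS (horizontal axis, limma-voom) for the tested genes of the 6 pathway lists (rows; within a row, genes are sorted by value), with genes past an adjusted p of 0.05 named. Most genes lie near 0, and more of the named genes lie to the left (4 of 6 in neutrophils, 8 of 11 in macrophages) than to the right.

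Of the genes of selectin binding, CD44 linkage and hyaluronan, 1 passed. *St3gal6*, a sialyltransferase used for selectin ligands, was the only one of 13 selectin genes past the threshold in neutrophils, from 33.8, 32.8 and 33.1 CPM to 17.6, 25.8 and 19.3 CPM (log2 -0.66, SE 0.17, limma-voom adjusted p = 0.0464). When single libraries were left out, it passed in 1 of 6 cases, without CGRP replicate 2, and it was not past the threshold by DESeq2. In macrophages, none of 11 selectin genes passed. None of the 15 CD44 and ERM genes tested in neutrophils or the 14 in macrophages passed. *Msn*, encoding moesin, which ties CD44 and PSGL-1 to actin, gave log2 fold changes of -0.15 (95% interval -0.33 to 0.02) and -0.05 (-0.41 to 0.31).

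On the list of immunoglobulin-family adhesion molecules, *Cd48*, a ligand of CD2 and CD244, fell in both cell types. It went from 84.4, 78.0 and 71.3 CPM to 54.6, 54.6 and 54.8 CPM in neutrophils (log2 -0.50, SE 0.11, limma-voom adjusted p = 0.0197) and from 367, 398 and 365 CPM to 217, 240.1 and 234 CPM in macrophages (log2 -0.71, SE 0.12, adjusted p = 0.00156). The neutrophil call was lost without control replicate 1 or 2 or CGRP replicate 1 or 2 (adjusted p up to 0.131). *Sirpa*, the myeloid receptor for CD47, fell in macrophages from 735, 627 and 883 CPM to 372, 403 and 469 CPM (log2 -0.84, SE 0.15, limma-voom adjusted p = 0.00149). *Cd9*, a tetraspanin and not an immunoglobulin-family protein, rose in neutrophils from 560.2 ± 25.1 to 707 ± 57.1 CPM (SD, n = 3, log2 0.35, SE 0.08, limma-voom adjusted p = 0.0196). When single libraries were left out, it passed in 1 of 6 cases, without CGRP replicate 2.

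The genes whose pattern was most like that of *Cytip* were ranked by Pearson's r of log2 CPM, centred on each cell type, over the 12 libraries and 8634 genes. The first 5 were *Gcsh* (r = 0.986), a subunit of the glycine cleavage system, *Crem* (0.981), a transcription factor that responds to cyclic AMP, *Pde4b* (0.980), a phosphodiesterase that degrades cyclic AMP, *Got1* (0.980), an aspartate aminotransferase, and *Id3* (0.977), an inhibitor of helix-loop-helix factors. These libraries share the treatment, so a high r mainly marks a larger difference with CGRP in macrophages than in neutrophils. With the mean of each group removed, r with *Cytip* was 0.77 for *Gcsh*, 0.04 for *Crem*, -0.42 for *Pde4b*, 0.20 for *Got1* and 0.49 for *Id3*. *Crem* was at 14.3, 14.7 and 12.2 CPM in control macrophages and at 190.2, 165 and 180.1 CPM with CGRP (log2 3.68), and at 10.1 ± 0.689 and 18.1 ± 3.58 CPM in neutrophils (SD, n = 3, log2 0.81). *Pde4b* shared with *Cytip* a lower control level in macrophages (12.2 ± 0.463 CPM) than in neutrophils (52.8 ± 4.06 CPM), whereas *Gcsh* was higher in control macrophages (60.8 ± 5.75 CPM) than in control neutrophils (20.2 ± 0.855 CPM; SD, n = 3). Among the other 8 genes, r with *Cytip* was highest for *Cyth1* (0.92) and *Cd44* (0.73) and lowest for *Cyth4* (-0.84), and with the mean of each group removed these signs turned (-0.75, -0.42 and 0.74).

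**Figure D4:**
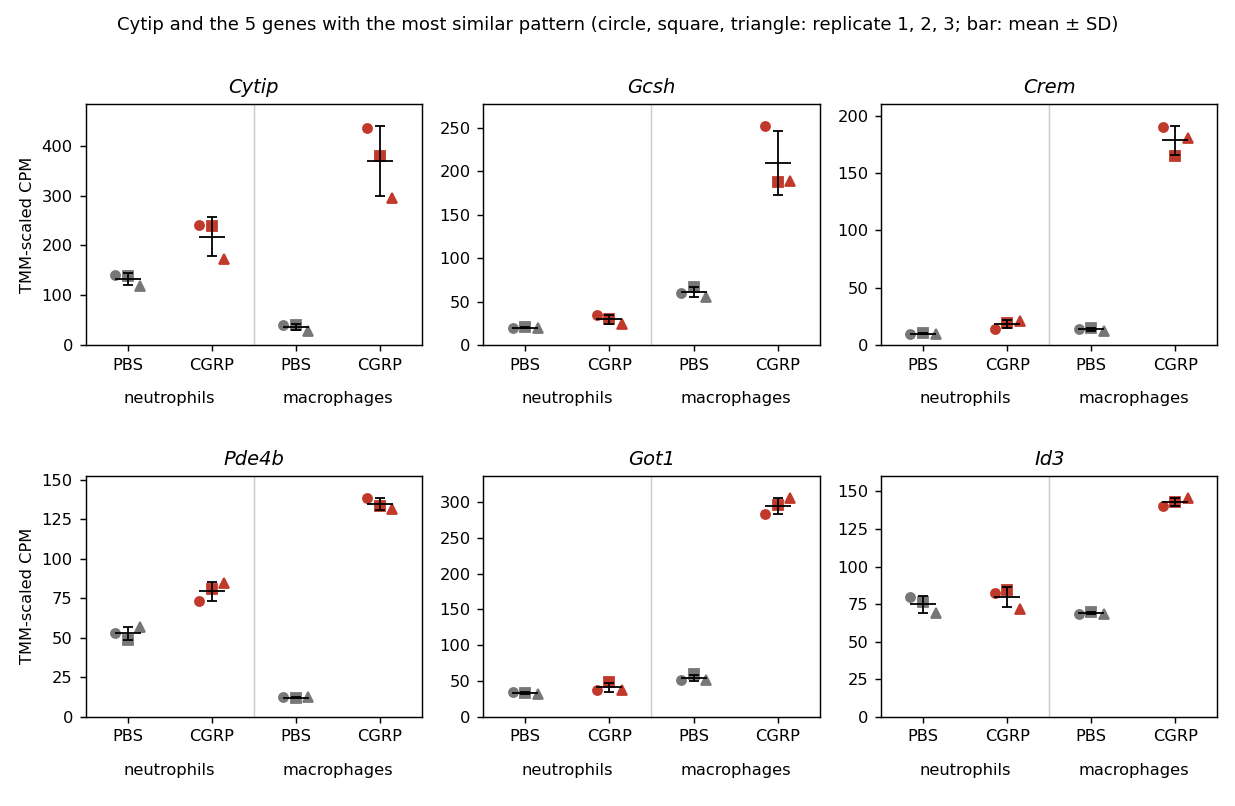
TMM-scaled CPM (vertical axes, each from 0) of *Cytip* and of the 5 genes with the highest r to it, in each of the 12 libraries, with the mean and SD of 3 libraries per group. In each panel, the 3 CGRP-treated macrophage libraries lie above the other 9.

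RNA of other cell types was measured beside these results. In macrophages, the 7 T cell markers summed to 2.01, 1.498 and 3.596 CPM in the control libraries and 7.84, 5.91 and 7.55 CPM with CGRP. Most of this was *Cd4* (2.17 and 6.33 CPM, log2 1.68, limma-voom adjusted p = 0.0394), the 1 gene of the list that could be tested, and *Cd3e* and *Cd3g* were at 0 in all 6 libraries. The 6 dendritic cell markers summed to 3.12 and 3.84 CPM. The B cell list summed to 31.9 and 38.1 CPM, all of it *Cd79b*, with *Cd79a*, *Ms4a1* and *Pax5* at 0. The part of these cells in the macrophage results was not tested. The remaining lists summed, for control and CGRP, to 343 and 425 CPM (neutrophil, mostly *S100a8*), 763 and 792 CPM (platelet, nearly all *Pf4*), 21.4 and 23.2 CPM (erythroid), 6.77 and 7.86 CPM (basophil), 4.40 and 5.29 CPM (eosinophil), 4.16 and 3.90 CPM (endothelial) and 1.30 and 3.00 CPM (NK cell), and none of their genes passed. Of the 12 macrophage markers, 1 passed in macrophages (*Apoe*, log2 0.46, limma-voom adjusted p = 0.0263), and the list summed to 78704 ± 11022 CPM in controls and 93287 ± 2741 CPM with CGRP (SD, n = 3).

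Neutrophil libraries also held RNA of other cells. These libraries had higher sums than macrophages for the erythroid, eosinophil, basophil, NK cell, B cell, T cell and dendritic cell lists. Their sums were lower for the endothelial list and, through *Pf4* alone, for the platelet list. Their erythroid markers summed to 6489 ± 813 CPM in controls and 6305 ± 743 CPM with CGRP, with *Hbb-bs* the most abundant, eosinophil markers to 599 ± 38.0 and 588 ± 57.3 CPM, with *Prg2* the most abundant, and basophil markers to 472 ± 56.7 and 429 ± 34.2 CPM, with *Mcpt8* the most abundant (SD, n = 3). The platelet list summed to 168 ± 1.17 and 171 ± 38.0 CPM, with *Pf4* the most abundant, the NK cell list to 110.1 ± 7.17 and 94.8 ± 14.4 CPM, with *Nkg7* the most abundant, and the B cell list to 91.2 ± 8.45 and 101 ± 2.31 CPM, with *Cd79b* the most abundant (SD, n = 3). *Ppbp*, *Itga2b* and *Gp9* were at 13.4, 6.63 and 2.27 CPM in control neutrophils and 2.78, 0.651 and 0 CPM in control macrophages. Of the NK cell genes, *Nkg7* was at 103 and 82.8 CPM and *Klrd1* at 5.87 and 10.3 CPM, for control and CGRP. *Ncr1*, *Klrb1c*, *Gzma* and *Prf1* were at 0, 0.105, 0.626 and 0.328 CPM in control neutrophils. T cell markers summed to 22.2 ± 2.65 and 19.3 ± 3.01 CPM and dendritic cell markers to 12.8 ± 1.76 and 15.6 ± 2.01 CPM (SD, n = 3). Most of the T cell sum was *Cd3d* (18.2 and 14.1 CPM). By contrast, *Cd3e* was at 0.120 and 0.293 CPM and *Trac* at 0.860 and 0.852 CPM. Endothelial markers summed to 2.20 and 1.91 CPM. No gene of these lists passed in neutrophils, nor any of the 10 neutrophil markers, which summed to 193821 ± 37325 and 172036 ± 23277 CPM (SD, n = 3). Of the 12 monocyte and macrophage markers, *Lyz2* fell there (log2 -0.39, SE 0.10, limma-voom adjusted p = 0.0296), from 21706 to 16386 CPM, and carried the difference in the sum of the list, which was 24142 ± 2532 CPM in controls and 18862 ± 2463 CPM with CGRP (SD, n = 3). No other gene of the list passed. The part of these cells in the neutrophil results was not tested.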

How the data were processed

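RNA from 12 libraries was sequenced from the 3′ end with molecular identifiers. The authors collapsed reads with the umi function of nfCore/RNAseq, used STAR for alignment to GRCm38 and featureCounts for counting, and the deposited values are raw counts, with a separate table for each cell type. Annotation release, strand setting and low-count filter are not given in the sources used here, so reads of overlapping genes may be shared. For *Vcl*, the overlapping *Ap3m1* gave a macrophage log2 fold change of -0.20 (not past the threshold), and for *Pxn*, *Gm13840* gave -0.37. *Trpt1* (over *Fermt3*) and *Gm13546* (over *Cytip*) had at most 9 counts. At most 2.82% of the last 500 bases of any of the 9 genes' transcripts, as 31-base stretches, occurred in another gene.

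The main test was limma-voom with TMM after filterByExpr, two-sided, with Benjamini–Hochberg adjustment over all genes tested (threshold 0.05), on each cell type's 6 libraries, and on 12 libraries for control levels and the interaction. The study's methods name limma-voom with TMM. The p-values set each difference against the spread between these libraries, which may be technical. The 9 genes and all lists were chosen with earlier results of these data known. Pathway genes were named where they passed and their groups did not overlap, with at most 12 per cell type and 5 by the interaction, then the 5 genes most like *Cytip*. Alternatives were edgeR, DESeq2, other scalings, filters and weights, thinning, a replicate block, a common fit and leaving out each library. The fits were tested on simulated data with 200 genes changed 2-fold. Positions are from GENCODE vM21 and promoters from RefSeq, and cytohesin protein identity was not computed here. No library was a copy of another. Software was R 4.3.3, limma 3.58.1, edgeR 4.0.16, DESeq2 1.42.0, Python 3.11.15, pandas 2.3.3 and matplotlib 3.10.9. Some genes of the lists are counted in the totals and not reported here by name.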

Additional observations from a re-analysis of the deposited data

Results flagged for a closer look

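The CGRP effect differed between macrophages and neutrophils for 6 of the 101 pathway genes tested for it (limma-voom interaction, adjusted over all genes, where 2.36% passed). The log2 change in macrophages minus that in neutrophils was -1.52 for *Apbb1ip*, 1.04 for *Pxn* and 1.07 for *Arl4c* (adjusted p = 0.0478 for the last). With single libraries left out, *Apbb1ip* and *Pxn* passed in all 12 cases and *Arl4c* in 3 of 12 (adjusted p up to 0.193). *Smap2* gave -0.72 (adjusted p = 0.0450) and *Cd9* -0.63 (adjusted p = 0.0368), and with single libraries left out these passed in 2 and 3 of 12 cases. *Pecam1*, an adhesion molecule of leukocytes, platelets and endothelium, gave 3.06 (adjusted p = 0.0394), from 0, 2 and 6 counts in control macrophages and 12, 6 and 13 with CGRP, beside 28, 25 and 27 and 18, 28 and 13 counts in neutrophils. It could not be tested in macrophages alone, passed in 3 of 12 cases with single libraries left out, and dropped to 1.93 (adjusted p = 0.244) without control macrophage replicate 1.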

How the results depend on the processing

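Genes past the threshold numbered 248 in neutrophils, 137 in a common fit of all 12 libraries, and between 138 and 234 with a library left out, the lowest without control replicate 1 or 2 (138 each), with 153 without CGRP replicate 2. In macrophages, 698 became 1406 with quality weights, 1050 in the common fit, and between 347 and 765 with a library left out (347 without control replicate 1, 348 without CGRP replicate 2, 439 without CGRP replicate 3). The interaction count of 252 became 520 with quality weights and between 149 and 328 with a library left out (149 without control macrophage replicate 1). Of the 9 genes, 5 passed in macrophages with quality weights (adding *Cyth3*, *Selplg* and *Cd44*), 4 in the common fit (adding *Cyth3* and *Cd44*), and between 2 and 4 with a library left out. In neutrophils, 2 or 3 passed, *Cyth3* failing with DESeq2 and with thinned counts. Since these 9 genes were chosen with this contrast known, nothing is read from how often they passed. No value that passed changed direction. Scaling by library totals changed the split of higher to lower genes from 148 and 100 to 150 and 64 in neutrophils, from 325 and 373 to 245 and 405 in macrophages, and from 129 and 123 to 88 and 154 in the interaction, whose median over all genes moved from 0.02 to -0.10 log2. For single genes that had passed, apart from the CGRP-against-saline values of the 9 genes, 77 recomputed values lost the threshold in the same direction. Most of these were with a library left out. The losses of *Cyth3* in neutrophils are not among them. *St3gal6* in neutrophils passed in 3 of 10 alternatives and the *Pecam1* interaction in 4 of 8.

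Libraries with the same replicate number did not deviate together throughout (r = 0.04, -0.01 and 0.14 in neutrophils, 0.06, -0.18 and 0.27 in macrophages). In both cell types, control replicates 1 and 3 correlated best with the CGRP library of their own number, and control replicate 2 did not. With 3 libraries per group, these values cannot decide whether libraries of the same number were prepared together. Under the replicate block, the number past the threshold was 289 in neutrophils (240 shared with the 248), 1007 in macrophages, 7434 in the comparison of control levels against 7263 without it, and 295 in the interaction. Among the 9 genes, the block gave 3 in neutrophils and 3 in macrophages, where it added *Cd44*. Depth limits the low genes most: *Cyth3* in neutrophils rested on 22 to 54 counts per library.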

Other observations

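Replicate 3 had the fewest counts in each of the 4 groups and also the lowest *Cytip* level in each (118, 174, 28.4 and 296 CPM). *Cyth1* did not follow, since replicate 3 was the highest library of its group for *Cyth1* in 3 of the 4 groups (82.4, 35.2 and 150.4 CPM). With the mean of each group removed, r between *Cytip* and *Cyth1* over the 12 libraries was -0.75, against 0.92 with only cell type means removed. These points share libraries, and 4 group means were taken out, so both are descriptions. With counts thinned to the smallest library of a cell type, the *Cytip* log2 fold change was 0.74 in neutrophils and 3.33 in macrophages.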
